A study of Mus musculus with 6 samples.

Results

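The cadherin switch, vimentin and the transcription factors of the epithelial-mesenchymal transition (EMT) were examined at the level of RNA in embryoid bodies (EBs), the aggregates that mouse embryonic stem cells form in hanging drops. The 10 genes, termed the members, were taken by symbol from the table of counts per gene: the cadherins Cdh1, Cdh2 and Cdh11, the adhesion gene Epcam, the intermediate filament gene Vim, and the factors Snai1, Snai2, Zeb1, Zeb2 and Twist1. They are 10 of the 52636 genes in the table, and all 10 were among the 17849 genes that passed the filter on low counts and were tested. The series compared EBs of the parental WT E14 line with EBs of a Tnfaip2-/- clone of that line, 3 samples each, all harvested on day 3 of differentiation, counted from the plating of the EBs on gelatin. The clone was made with CRISPR-Cas9 and carries a premature stop in the second exon of Tnfaip2, and since 1 clone was set against its parental line, the genotype and other properties of the clone cannot be told apart. The volume of the drops and the number of cells in each differ between the sample descriptions and the methods, and neither value was used here. Total counts ranged from 22489903 to 23804489 in the WT samples and from 21765931 to 22480962 in the Tnfaip2-/- samples. The study calls the samples biological replicates, while the labels number them and do not say that each came from a separate culture, and the p-values measure the spread between these samples. That spread was small. Over 13004 genes with at least 50 counts in every sample, squared differences within a genotype averaged 1.42 to 2.15 times those of counting error. The spread between clones is not part of it.

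In an EMT, cells that adhere tightly to their neighbours loosen these contacts and become motile, as happens in the embryo when mesoderm forms at the primitive streak. E-cadherin, encoded by Cdh1, gives way to N-cadherin, encoded by Cdh2, in what is called the cadherin switch, while the vimentin filaments encoded by Vim are built up. The zinc finger factors of the SNAIL and ZEB families and the helix-loop-helix factor encoded by Twist1 repress epithelial genes, Cdh1 among them, through short E-box sequences in DNA.

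Tnfaip2, the edited gene, had 7, 4 and 7 counts in the WT samples and 0, 2 and 2 in the Tnfaip2-/- samples. All WT samples lay above all Tnfaip2-/- samples, in the direction of the labels, but the counts were too few for the gene to pass the filter, and no test is given. Over the summed counts, the level in WT EBs was 4.39 times that in Tnfaip2-/- EBs, with an exact 95% interval from 1.44 to 17.8 that covers counting error only. Antisense reads cannot be separated in these libraries, whose preparation does not keep the strand.

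A gene is termed called where edgeR's quasi-likelihood test, after Benjamini-Hochberg adjustment over all tested genes, gave a value below 0.05. Of the 10 members 7 were called, against 67.7% of all tested genes. All 7 were lower in Tnfaip2-/- EBs, a direction in which 33.7% of all tested genes were called. None was higher (0 of 10, also at an unadjusted p below 0.05 and with DESeq2), against 34.0% of all tested genes, but Cdh1 was called higher, with a log2 fold change of 0.065 and 0.067, when upper-quartile factors or library totals alone set the scale. These scalings shift all genes alike, and moved the median log2 fold change over all tested genes from 0.003 to 0.029 and 0.031. The median log2 fold change of the 10 members was -0.82, against 0.003 over all tested genes. Called with a fall of at least 2-fold were 4 members, Cdh11, Vim, Zeb2 and Twist1, against 4.51% of all tested genes. The samples of the genotypes did not overlap for 8 members, against 69.4% of all tested genes, and overlapped for Snai2 and Zeb1. In bulk samples, fewer cells of a type and less RNA per cell cannot be told apart.

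**Figure D1:**
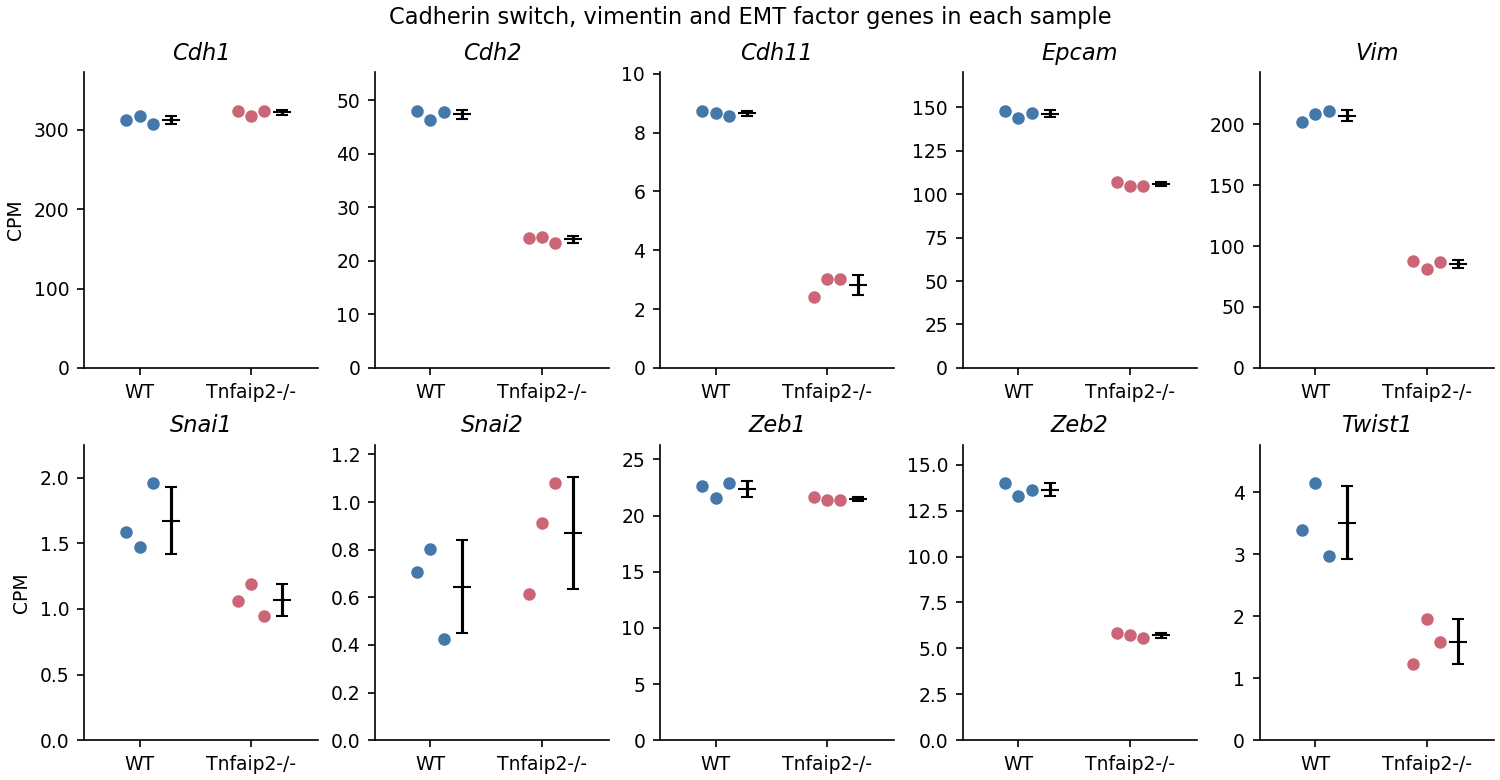
Each panel plots 1 gene, with its level in CPM (counts scaled to the normalized size of the library) on the y axis and the genotype on the x axis; points are single samples and bars give the mean ± SD of 3 samples. Cdh2, Cdh11, Epcam, Vim, Zeb2 and Twist1 separate by genotype, while the points of Snai2 and Zeb1 overlap.

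Cdh1 (ENSMUSG00000000303, chromosome 8, 106603351 to 106670246 in GRCm38) encodes E-cadherin, which joins epithelial cells and also the cells of embryonic stem cell colonies. Its level, in CPM, was 313, 318 and 308 in the WT samples and 324, 318 and 324 CPM in the Tnfaip2-/- samples. The groups touched without overlapping, since the highest WT sample and the lowest Tnfaip2-/- sample both round to 318 CPM. The mean was 313 ± 5.09 CPM in WT EBs and 322 ± 3.02 CPM in Tnfaip2-/- EBs (SD, n = 3). The log2 fold change of Cdh1 was 0.039, with a standard error of 0.0251 and a 95% interval from -0.011 to 0.09, and it did not pass the test (edgeR, Benjamini-Hochberg adjusted p = 0.164). With upper-quartile factors or library totals alone, the shift of all genes given above moved it past the threshold, while with the other settings run it was not called. A larger absolute log2 fold change was found in 92.8% of all tested genes.

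Cdh2 (ENSMUSG00000024304, chromosome 18, 16588877 to 16809246) encodes N-cadherin, the cadherin of neural tissue and much mesoderm. It was counted at 48, 46.3 and 47.7 CPM in the WT samples and at 24.2, 24.5 and 23.3 CPM in the Tnfaip2-/- samples. Every WT sample lay far above every Tnfaip2-/- sample, and within each genotype the samples lay close together. The mean level of Cdh2 was 47.3 ± 0.881 CPM in WT EBs and 24.0 ± 0.62 CPM in Tnfaip2-/- EBs (SD, n = 3). This is a log2 fold change of -0.98 ± 0.0478 (SE), and Cdh2 was called lower (edgeR, Benjamini-Hochberg adjusted p = 6.46e-23). The 95% interval of this value ran from -1.08 to -0.88, and 4.64% of all tested genes had a lower log2 fold change. Cdh11 (ENSMUSG00000031673, chromosome 8, 102632095 to 102785642) encodes a cadherin of mesenchymal cells. It had 198, 194 and 201 counts in the WT samples and 55, 66 and 67 in the Tnfaip2-/- samples. The gap between the genotypes was wide, and Tnfaip2-/- replicate 1 was the lowest of all 6 samples. From 8.65 ± 0.0912 CPM in WT EBs, Cdh11 fell to 2.82 ± 0.344 CPM in Tnfaip2-/- EBs (SD, n = 3), and its log2 fold change was -1.62 ± 0.114 (SE; edgeR, Benjamini-Hochberg adjusted p = 4.74e-17). The 95% interval for Cdh11 ran from -1.85 to -1.39. Of the 10 members Cdh11 had the most negative log2 fold change, and 309 of all tested genes (1.73%) had a lower one.

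Levels of different genes were compared per length, as CPM per kilobase of annotated exon (CPM per kb). The length joins the exons of all annotated transcripts of a gene, 4.57 kb for Cdh1, 8.07 kb for Cdh2 and 4.74 kb for Vim. It can exceed the length of the RNA present, so orders and ratios between genes depend on it. The same length was used for both genotypes. Per kb, Cdh1 exceeded Cdh2 by a ratio of 11.5, 12.1 and 11.4 in the WT samples and of 23.6, 22.9 and 24.5 in the Tnfaip2-/- samples. Cdh1 RNA was above Cdh2 RNA in all 6 samples, and the ratio was higher in every Tnfaip2-/- sample. The mean ratio was 11.7 ± 0.385 in WT EBs and 23.7 ± 0.79 in Tnfaip2-/- EBs (SD, n = 3), given as a description. Among the 18 classical cadherins looked at, Cdh2 made up 6.47 ± 0.218% of the summed CPM per kb in WT EBs and 3.01 ± 0.0935% in Tnfaip2-/- EBs. The share of Cdh11 was 1.07 ± 0.014% in WT EBs and 0.321 ± 0.0386% in Tnfaip2-/- EBs. The share of Cdh1 itself was 75.5 ± 0.25% in WT EBs and 71.3 ± 0.544% in Tnfaip2-/- EBs. All 3 member cadherins thus had a smaller share in Tnfaip2-/- EBs, also Cdh1, whose own level did not pass the test. The share of Cdh3, which encodes P-cadherin of epithelia and placenta, was higher in every Tnfaip2-/- sample, at 10.7 ± 0.179% in WT EBs and 20.7 ± 0.391% in Tnfaip2-/- EBs. The ratio of Cdh3 to Cdh2 was 1.66 ± 0.0606 in WT EBs and 6.86 ± 0.189 in Tnfaip2-/- EBs. The summed level of all 18 genes was 90.7 ± 1.69 CPM per kb in WT EBs and 98.7 ± 0.527 CPM per kb in Tnfaip2-/- EBs.

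**Figure D2:**
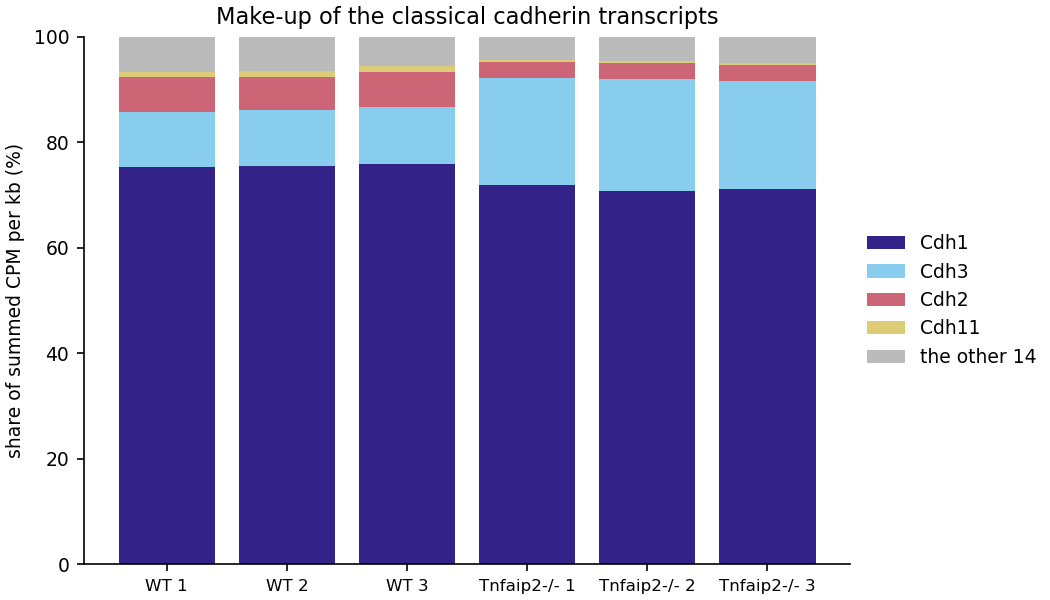
Stacked bars give the share of each classical cadherin in the summed CPM per kb (y axis, %) of each of the 6 samples (x axis), with 14 cadherins joined as others. Cdh1 is the largest part of every bar, and the Cdh2 part is between 6.23% and 6.65% in the WT samples and between 2.91% and 3.09% in the Tnfaip2-/- samples.

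Of the 15 other classical cadherins, 8 were tested, with 2 called higher, 4 called lower and a median log2 fold change of -0.41. Cdh3, the most abundant of them per kb, rose from 42.7 ± 0.751 to 89.4 ± 1.58 CPM (log2 fold change 1.07 ± 0.0379 SE; edgeR, Benjamini-Hochberg adjusted p = 3.23e-28). Cdh10 and Cdh22, which encode cadherins of the nervous system, fell, with log2 fold changes of -2.24 and -1.84. The catenins tie cadherins to the cytoskeleton, and the list of 7 also held Vcl, which encodes vinculin, a partner of catenins. All 7 were called, 3 higher and 4 lower, and the median log2 fold change, -0.46, is that of Vcl itself. Ctnnb1, which encodes beta-catenin and was the most abundant per kb in both genotypes, rose from 715 ± 4.51 to 824 ± 5.02 CPM (log2 fold change 0.20; edgeR, Benjamini-Hochberg adjusted p = 5.91e-11). Ctnnd2, Ctnna2 and Jup fell, with log2 fold changes of -1.53, -0.96 and -0.70. Exons of a gene on the opposite strand overlap 25.5% of the exon bases of Vcl, and another annotated gene shares 61.2% of those of Ctnnd1, 1 of the higher catenins, so the counts of both, and with Vcl the median of the list, are uncertain.

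Epcam (ENSMUSG00000045394, chromosome 17, 87635979 to 87651129) encodes an adhesion protein of epithelia and of pluripotent cells. Its level was 148, 144 and 147 CPM in the WT samples and 107, 105 and 105 CPM in the Tnfaip2-/- samples. The genotypes were well apart, with all Tnfaip2-/- samples below all WT samples. The mean of Epcam was 146 ± 2.13 CPM in WT EBs and 106 ± 1.03 CPM in Tnfaip2-/- EBs (SD, n = 3), or 72.1% of the WT level. Its log2 fold change was -0.47 ± 0.0301 (SE), and it was called lower (edgeR, Benjamini-Hochberg adjusted p = 1.28e-18). The 95% interval for Epcam ran from -0.53 to -0.41, and a test against a fold change of 1.5 did not call it. A lower log2 fold change was found in 15.3% of all tested genes. Per kb, Cdh1 and Epcam stood at similar levels in WT EBs, 68.5 ± 1.11 and 66.7 ± 0.971 CPM per kb, with overlapping samples, and apart in Tnfaip2-/- EBs, 70.4 ± 0.661 and 48.1 ± 0.468 CPM per kb. The ratio of Cdh1 to Epcam was 1.02, 1.06 and 1.01 in the WT samples and 1.46, 1.46 and 1.47 in the Tnfaip2-/- samples.

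The RefSeq promoter table (GRCm38.p6) held 5 of the 10 members, Epcam, Snai1, Twist1, Vim and Zeb2. The 250 bases before each start were searched for the E-box CAGGTG on both strands, where the other strand reads CACCTG, because factors of the SNAIL and ZEB families bind these letters. They occurred before the start of Epcam and of Snai1, in none of the windows searched for Twist1, Vim and Zeb2, and in 17.3% of all promoters in the table (2.07% held more than 1). The windows of Epcam and Snai1 are shown because they hold the letters, which are in capitals. All 5 members with an entry were called lower, so the search cannot relate the letters to the lower levels. The window of Epcam is chr17:87635729-87635978 and that of Snai1 is chr2:167537945-167538194, both on the forward strand and read 5′ to 3′.
Epcam: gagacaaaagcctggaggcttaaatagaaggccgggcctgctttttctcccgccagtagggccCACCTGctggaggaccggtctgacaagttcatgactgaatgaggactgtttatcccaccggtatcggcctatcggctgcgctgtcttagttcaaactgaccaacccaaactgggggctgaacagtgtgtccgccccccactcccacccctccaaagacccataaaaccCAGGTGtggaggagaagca
Snai1: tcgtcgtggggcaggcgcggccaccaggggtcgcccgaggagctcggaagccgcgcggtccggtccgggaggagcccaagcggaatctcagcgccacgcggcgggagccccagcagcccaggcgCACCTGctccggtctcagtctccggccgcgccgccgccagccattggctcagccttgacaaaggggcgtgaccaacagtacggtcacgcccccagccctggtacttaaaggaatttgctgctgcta
In the window of Epcam the matches begin 187 and 19 bases before the start, and in that of Snai1 the match begins 126 bases before it. A match describes letters and not a bound site. Cdh1, Cdh2, Cdh11, Snai2 and Zeb1 had no entry. The starts are those of RefSeq, and the window of Vim, chr2:13574061-13574310, lies inside the annotated gene, which begins at 13573927. The bases before that position were not searched. Windows at inner starts of Zeb2 also lie inside the gene.

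Vim (ENSMUSG00000026728, chromosome 2, 13573927 to 13582826) encodes vimentin, the intermediate filament of mesenchymal cells, which cultured and early embryonic cells also form. It had 4574, 4655 and 4950 counts in the WT samples and 1988, 1777 and 1936 in the Tnfaip2-/- samples. No sample of either genotype came near the other group. The mean of Vim was 207 ± 4.53 CPM in WT EBs and 85.3 ± 3.62 CPM in Tnfaip2-/- EBs (SD, n = 3), or 41.3% of the WT level. Its log2 fold change was -1.28, with a standard error of 0.0316, a 95% interval from -1.34 to -1.21, and the smallest p of the 10 members (edgeR, Benjamini-Hochberg adjusted p = 2.01e-34). Vim RNA remained the third most abundant of the members per kb, after Cdh1 and Epcam, in both genotypes, at 43.6 ± 0.956 CPM per kb in WT EBs and 18 ± 0.762 CPM per kb in Tnfaip2-/- EBs. In CPM, without the length, Vim stood above Epcam in WT EBs (207 against 146) and below it in Tnfaip2-/- EBs (85.3 against 106). Of all tested genes, 2.92% had a lower log2 fold change than Vim. The ratio of Cdh1 to Vim per kb was 1.61, 1.59 and 1.52 in the WT samples and 3.84, 4.07 and 3.84 in the Tnfaip2-/- samples. With the exon lengths used, Cdh1 RNA was above Vim RNA in all 6 samples, and the ratio did not overlap between genotypes. The ratio itself depends on these lengths. Its mean was 1.57 ± 0.0492 in WT EBs and 3.92 ± 0.132 in Tnfaip2-/- EBs. Vim stood above Cdh2 by a ratio of 7.44 ± 0.249 in WT EBs and 6.05 ± 0.382 in Tnfaip2-/- EBs.

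Vimentin belongs to the type III intermediate filaments. Of the 9 other genes of types III and IV listed, all were tested, 4 were called higher and 4 lower, and the median log2 fold change was 0.02. Synm and Prph, which encode synemin and peripherin, rose, with log2 fold changes of 2.43 and 2.03, and Nefm, a neurofilament gene, fell, with a log2 fold change of -1.84. Ina, which encodes internexin and was the most abundant of the list per kb in WT EBs, fell from 77.2 ± 3.38 to 50.8 ± 0.572 CPM (edgeR, Benjamini-Hochberg adjusted p = 2.3e-18). In Tnfaip2-/- EBs Prph was the most abundant, at 23.7 CPM per kb against 15.7 CPM per kb for Ina. Exons on the opposite strand overlap 19.2% of the exon bases of Nefm, from Nefl, and 14.1% of those of Ina, so their counts are uncertain.

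**Figure D3:**
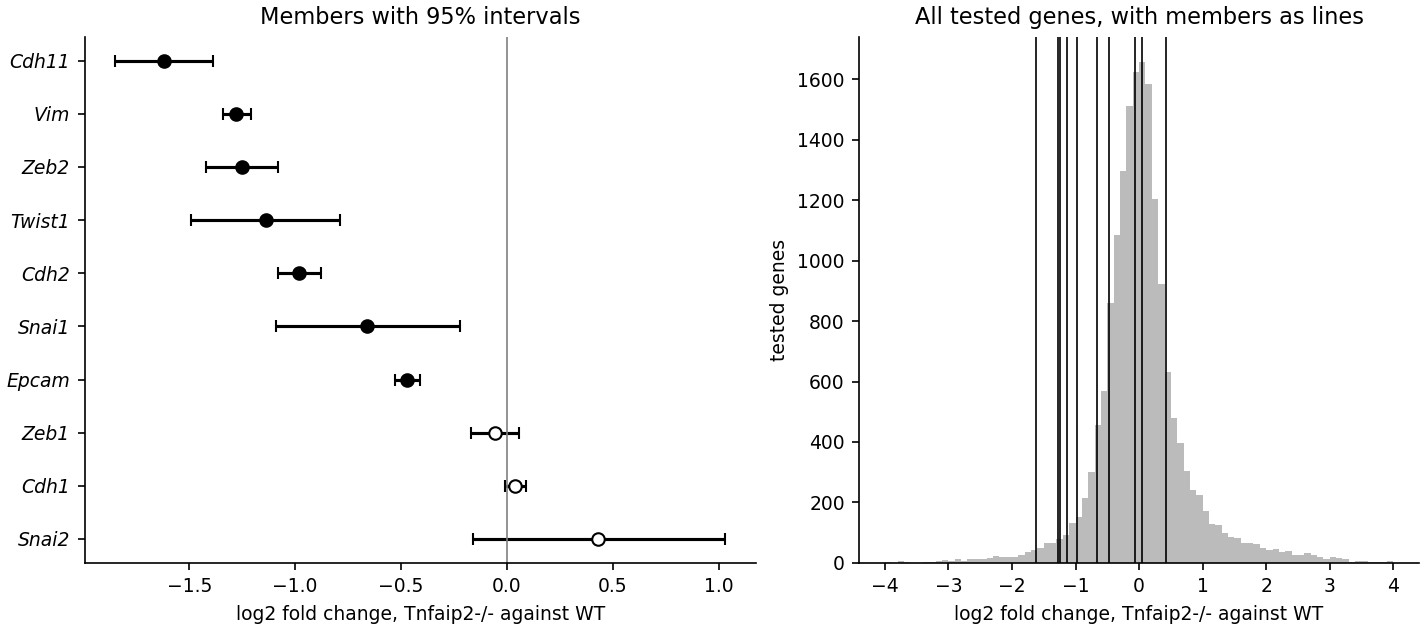
The left panel gives the log2 fold change of each member (x axis, Tnfaip2-/- against WT) with its 95% interval, filled where called and open where not. The right panel gives the number of tested genes (y axis) by log2 fold change (x axis) from -4 to 4, with the members as vertical lines and 49 genes outside the range; 7 members lie left of the centre of the distribution with filled symbols.

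Per kb, each of the EMT factors was less abundant than Cdh1, Epcam, Vim and Cdh2 in both genotypes. Summed over Snai1, Snai2, Zeb1, Zeb2 and Twist1, they stood at 6.32, 6.63 and 6.16 CPM per kb in the WT samples and at 4.12, 4.76 and 4.46 CPM per kb in the Tnfaip2-/- samples. The sum was lower in every Tnfaip2-/- sample, and within it Zeb1 and Twist1 were the highest in WT EBs, with overlapping samples.

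Zeb1 (ENSMUSG00000024238, chromosome 18, 5591860 to 5775467) encodes a repressor of Cdh1 and of other epithelial genes. Its level was 22.6, 21.6 and 22.9 CPM in the WT samples and 21.7, 21.4 and 21.4 CPM in the Tnfaip2-/- samples. The groups overlapped, with WT replicate 2 below Tnfaip2-/- replicate 1. The log2 fold change of Zeb1 was -0.057 (standard error 0.0569, 95% interval from -0.17 to 0.058), which did not pass the test (edgeR, Benjamini-Hochberg adjusted p = 0.383). Zeb2 (ENSMUSG00000026872, chromosome 2, 44983632 to 45117395) is its paralog. In the WT samples it was counted 318, 297 and 319 times, and in the Tnfaip2-/- samples 133, 125 and 124 times. All Tnfaip2-/- samples lay far below all WT samples. From 13.6 ± 0.386 CPM, Zeb2 fell to 5.72 ± 0.131 CPM (SD, n = 3), and its log2 fold change was -1.25 ± 0.0854 (SE; edgeR, Benjamini-Hochberg adjusted p = 1.41e-17). The 95% interval for Zeb2 ran from -1.42 to -1.08, and 3.04% of all tested genes had a lower log2 fold change. Per kb, Zeb1 exceeded Zeb2 by a ratio of 3.13, 3.17 and 3.28 in the WT samples and of 7.22, 7.29 and 7.44 in the Tnfaip2-/- samples. The exon lengths used were 10.27 kb for Zeb1 and 19.94 kb for Zeb2, and the ratio depends on them. It was higher in each Tnfaip2-/- sample than in any WT sample. Zeb2 passed the test and Zeb1 did not, and the difference between their changes was not tested. Exons of an antisense gene cover 3.3% of the exon bases of Zeb2, and it had 7 counts over all samples, against 1316 for Zeb2.

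Twist1 (ENSMUSG00000035799, chromosome 12, 33957671 to 33959829) encodes a helix-loop-helix factor of early mesoderm and neural crest. The WT samples held 77, 93 and 70 counts of it and the Tnfaip2-/- samples 28, 43 and 35. The groups did not overlap and the spread within each was wide. The mean of Twist1 was 3.51 ± 0.595 CPM in WT EBs and 1.59 ± 0.366 CPM in Tnfaip2-/- EBs (SD, n = 3). Its log2 fold change was -1.14 ± 0.174 (SE), with a 95% interval from -1.49 to -0.79 (edgeR, Benjamini-Hochberg adjusted p = 1.63e-07). A lower log2 fold change than that of Twist1 was found in 3.57% of all tested genes.

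Snai1 (ENSMUSG00000042821, chromosome 2, 167538195 to 167542814) encodes a factor needed for EMT at the primitive streak. It had 36, 33 and 46 counts in the WT samples and 24, 26 and 21 in the Tnfaip2-/- samples. WT replicate 3 stood above the other samples, and the lowest WT sample lay above the highest Tnfaip2-/- sample. The mean of Snai1 was 1.67 ± 0.253 CPM in WT EBs and 1.06 ± 0.12 CPM in Tnfaip2-/- EBs (SD, n = 3). The log2 fold change of Snai1 was -0.66 ± 0.215 (SE; edgeR, Benjamini-Hochberg adjusted p = 0.00676). The 95% interval for Snai1, from -1.09 to -0.22, was wide beside those of Epcam and Vim. The call was lost without WT replicate 3 (edgeR, adjusted p = 0.0531), with DESeq2 (adjusted p = 0.0829) and in edgeR's test against a fold change of 1.5 (adjusted p = 0.698), and the lowest adjusted p over the alternatives was 0.00542. Snai2 (ENSMUSG00000022676, chromosome 16, 14705852 to 14709385), which encodes SLUG, had 16, 18 and 10 counts in the WT samples and 14, 20 and 24 in the Tnfaip2-/- samples. The groups overlapped, and the mean count was the lowest of the members in both genotypes. The log2 fold change of Snai2 was 0.43, with a standard error of 0.296 and a 95% interval from -0.16 to 1.03, and a difference was not detectable at this depth (edgeR, Benjamini-Hochberg adjusted p = 0.194). Leaving out 1 sample moved this value to between 0.191 (without WT replicate 3) and 0.631 (without Tnfaip2-/- replicate 1). The ratio of Snai1 to Snai2 per kb was 2.81, 2.29 and 5.74 in the WT samples and 2.14, 1.62 and 1.09 in the Tnfaip2-/- samples.

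Ordered by level per kb in WT EBs, the members ran from Cdh1 and Epcam through Vim and Cdh2 to Zeb1, Twist1, Snai1, Cdh11, Zeb2 and Snai2. Neighbours whose samples overlapped were Cdh1 and Epcam, Zeb1 and Twist1, and Snai1 and Cdh11. In Tnfaip2-/- EBs the first 7 places were the same, and Snai2, Cdh11 and Zeb2 followed, each with samples overlapping those of the next in this order.

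The levels per kb were also set against those of the 17831 tested genes with a known exon length. Cdh1 stood at percentile 93.6 of these genes by CPM per kb in WT EBs and at 93.9 in Tnfaip2-/- EBs. Epcam stood at percentile 93.5 in WT EBs and at 91.2 in Tnfaip2-/- EBs. These epithelial genes were thus among the more abundant RNAs in both genotypes. Vim, the next in order, stood at percentile 78.8 in Tnfaip2-/- EBs, below its place in WT EBs. Cdh2 moved from percentile 55.2 to 41.2, and thus from above to below the middle of the tested genes. Cdh11 moved from percentile 23.4 to 9.2. Among the factors, Zeb1 stood at percentile 35.9 in WT EBs and at 34.7 in Tnfaip2-/- EBs. Twist1, next to Zeb1 in WT EBs, moved from percentile 35.7 to 22.7. Snai1 moved from percentile 24.2 to 17.3, and was the third of the factors in both genotypes. Zeb2, with a joined exon length of 19.94 kb, moved from percentile 19.2 to 8.3 and became the lowest of the factors per kb. In CPM, Zeb2 stood at 5.72 in Tnfaip2-/- EBs, above Twist1 (1.59), Snai1 (1.06) and Snai2 (0.871), so this place depends on the length. Snai2, whose groups overlapped, stood at percentile 10.9 in WT EBs and at 12.4 in Tnfaip2-/- EBs.

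Genes most like Vim and Cdh1 over the 6 samples were sought by Pearson's r of log2 CPM among the 10119 genes whose mean reached 10 CPM. The r is a description, since the samples form 2 groups and a gene that differs between the groups tends to a high r with any other such gene. For Vim the 3 genes with the highest r were Ssrp1, Trib2 and Id2, each with r = 0.9998 and with log2 fold changes of -0.21, -1.59 and -1.30. For Cdh1 they were Babam2, Map3k2 and Tada2a, with r of 0.9903, 0.9812 and 0.9795.

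Of 11 other EMT transcription factors, 8 were tested, 4 called higher and 4 lower, with a median log2 fold change of 0.17. Gsc, a factor of the organizer, fell, with a log2 fold change of -2.65, whereas Snai3 rose, with a log2 fold change of 1.49. Tcf3, which encodes an E-box binding partner of TWIST1 and was the most abundant of these per kb, fell from 238 ± 8.5 to 146 ± 0.523 CPM. Of the 10 partners of SNAIL and ZEB, corepressors and regulators of protein stability, 3 were called higher and 5 lower, with a median log2 fold change of -0.03. Ctbp1 and Hdac2 fell, with log2 fold changes of -0.65 and -0.58, and Kdm1a rose, with a log2 fold change of 0.30.

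Among 10 regulators of the epithelial state, 9 were tested, and 7 were called higher and 1 lower, with a median log2 fold change of 0.83. Grhl3 and Elf3 rose, with log2 fold changes of 2.47 and 1.61, and Rbm47 rose from 4.26 ± 1.16 to 18.3 ± 0.531 CPM. Grhl2, the 1 called lower, fell from 19.4 ± 0.898 to 9.96 ± 0.71 CPM (log2 fold change -0.96). Of 16 genes of epithelial junctions and partners of EPCAM, 15 were tested, with 10 called higher, 1 lower and a median log2 fold change of 0.40. Dsp, which encodes desmoplakin of desmosomes, rose from 12.2 ± 1.3 to 87.7 ± 1.78 CPM, and St14 rose, with a log2 fold change of 1.58, while Rab25 fell, with a log2 fold change of -1.16. Spint2, the most abundant of these per kb in WT EBs, rose from 96.7 ± 1.7 to 126 ± 2.83 CPM, and in Tnfaip2-/- EBs Llgl2 stood at 28.2 CPM per kb and Spint2 at 27.6 CPM per kb. Epcam fell beside these lists, and Cdh1 was called higher under the scalings named above and under no other setting run.

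Of 15 mesenchymal effectors, 13 were tested, 5 called higher and 4 lower, with a median log2 fold change of 0.08. Fn1, which encodes fibronectin and was the most abundant per kb in WT EBs, fell from 673 ± 22.7 to 528 ± 8.43 CPM. Sparc rose, with a log2 fold change of 0.59, and was the most abundant in Tnfaip2-/- EBs, at 53.4 CPM per kb against 45.2 CPM per kb for Fn1. Mmp14 fell, with a log2 fold change of -1.40. Loxl2 rose, with a log2 fold change of 0.96, while Vim, Cdh2 and Cdh11 fell. S100a4 had 0 counts in all 6 samples, and another annotated gene shares 51.7% of its exon bases, so this value is uncertain. Of 12 genes of the TGF-beta route, a signal that induces SNAIL and ZEB factors, 11 were tested, 5 called higher and 5 lower, with a median log2 fold change of 0.18. Tgfb1, Tgfbr2 and Smad3 rose, with log2 fold changes of 1.72, 1.41 and 0.54, and Smad4, the most abundant per kb, fell, with a log2 fold change of -0.10.

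**Figure D4:**
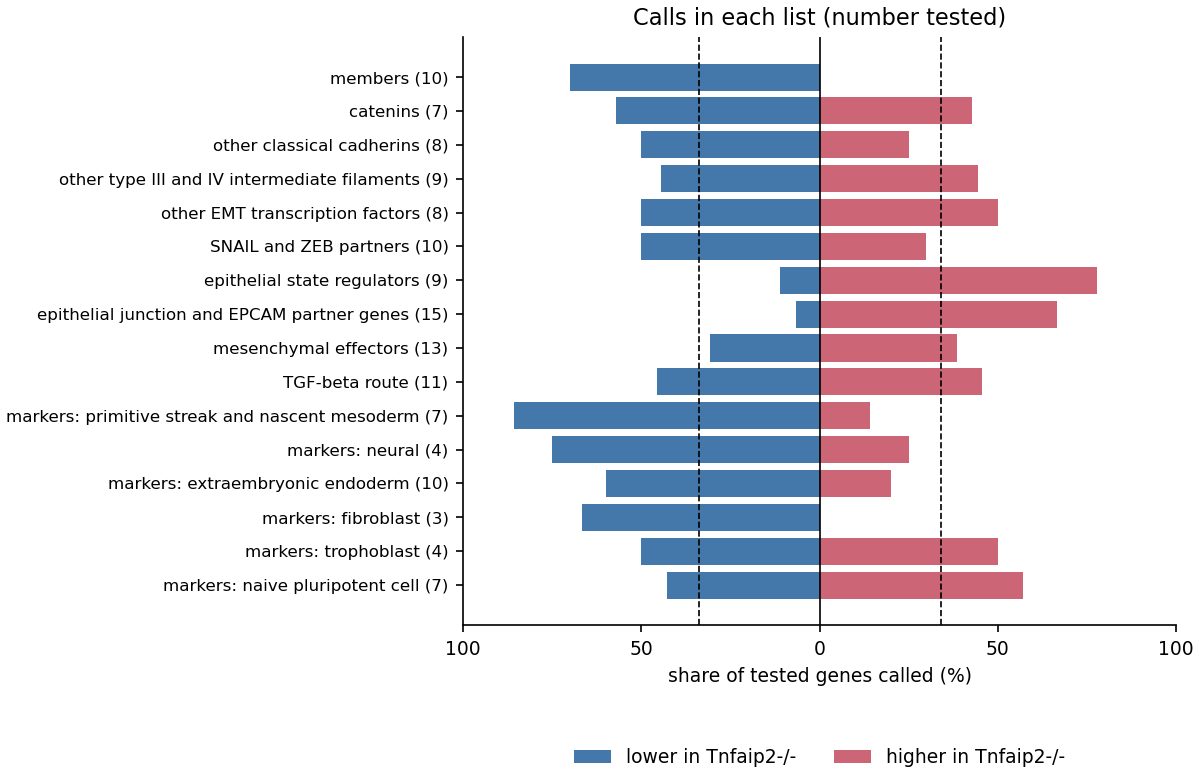
Bars give the share of tested genes called lower (left) and higher (right) in Tnfaip2-/- EBs for each list (x axis, %), with the number tested in brackets. The dashed lines mark 33.7% lower and 34.0% higher over all tested genes, and the bar of the members extends to the left only.

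Markers of cell types that EBs can hold also differed between the genotypes. Of 8 markers of the primitive streak and nascent mesoderm, where Snai1, Cdh2 and Vim are switched on in the embryo, 7 were tested, and 6 were called lower and 1 higher, with a median log2 fold change of -3.74, or -3.01 with Mesp1 set at the floor of 3 counts. Their summed level was 225, 221 and 221 CPM in the WT samples and 190, 179 and 185 CPM in the Tnfaip2-/- samples. Most of that sum was Lefty2, the most abundant per kb, which rose, with a log2 fold change of 0.19, whereas T and Evx1 fell, with log2 fold changes of -7.95 and -4.44, and Msgn1 had 0 counts in all Tnfaip2-/- samples. The part of these markers in the lower levels of Snai1, Cdh2 and Vim was not tested.

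Of 6 neural markers, 4 were tested, 3 called lower and 1 higher, with a median log2 fold change of -1.22 and summed levels of 156, 156 and 147 CPM in the WT samples and 116, 118 and 118 CPM in the Tnfaip2-/- samples. Tubb3, the most abundant per kb, rose, with a log2 fold change of 0.37, and Sox1 fell, with a log2 fold change of -1.61. Zic1 had 111, 94 and 107 counts in the WT samples and 2, 0 and 2 in the Tnfaip2-/- samples, a ratio of 76 with an exact 95% interval from 29.4 to 281, and Neurog2 had 1 count in WT replicate 1 and 0 counts in the other samples. The part of neural cells in the level of Cdh2, Zeb2 or Vim was not tested.

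The 6 fibroblast markers were near the floor, with summed levels of 3.79, 4.87 and 4.3 CPM in the WT samples and 1.54, 2.24 and 2.39 CPM in the Tnfaip2-/- samples. Of the 3 tested, 2 were called lower and 0 higher, with a median log2 fold change of -1.50; Col1a1, the most abundant per kb, did not pass (log2 fold change -0.037), Col1a2 fell, with a log2 fold change of -1.50, and Col3a1 had 12, 21 and 12 counts against 1, 1 and 0. Lum and Postn had 0 counts in all Tnfaip2-/- samples and no more than 4 in any WT sample. The part of such cells in the levels of Vim, Cdh11 and Twist1 was not tested.

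Among 10 markers of extraembryonic endoderm, all tested, 2 were called higher and 6 lower, with a median log2 fold change of -0.34, and their summed level was 87, 85.5 and 85.4 CPM in the WT samples and 71.1, 70.4 and 72.2 CPM in the Tnfaip2-/- samples. Dab2 was the most abundant per kb (log2 fold change -0.17), Apoa1 fell, with a log2 fold change of -2.59, and Afp had 21, 16 and 25 counts against 1, 0 and 2. Sox7 and Sox17, the 2 called higher, had log2 fold changes of 0.64 and 0.45, and Gata4 and Gata6 did not pass. Of 6 trophoblast markers, 4 were tested, 2 called higher and 2 lower, with a median log2 fold change of 0.32 and summed levels of 31.8, 32.6 and 29.1 CPM in the WT samples and 21.4, 19.6 and 23.4 CPM in the Tnfaip2-/- samples. Most of this sum was Eomes, at 28.4 CPM in WT EBs and 18.5 CPM in Tnfaip2-/- EBs (log2 fold change -0.62), which was the most abundant per kb and is also in the list of primitive streak markers. Krt7 rose, with a log2 fold change of 1.26, Hand1 rose, with a log2 fold change of 1.75, and Cdx2 had 42, 37 and 28 counts against 1, 2 and 0. All 7 markers of naive pluripotent cells, which express Cdh1 and Epcam, were called, 4 higher and 3 lower, with a median log2 fold change of 0.26. Their summed level was 1725.4, 1706.2 and 1719.7 CPM in the WT samples and 1699.3, 1706.6 and 1709.7 CPM in the Tnfaip2-/- samples, with Pou5f1 the most abundant per kb in WT EBs (log2 fold change -0.86), Klf4 lower (log2 fold change -1.49) and Klf2 higher (log2 fold change 0.98). Pou5f1, the largest part of this sum in WT EBs, fell from 760 ± 9.63 to 419 ± 5.97 CPM. The sums join this fall with the rise of the 4 markers called higher, and do not mean unchanged markers. In Tnfaip2-/- EBs Zfp42 was the most abundant, at 227 CPM per kb against 186 CPM per kb for Pou5f1. No marker of these 3 lists had 0 counts in all samples, and the part of these cells in the levels of the members was not tested.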

How the data were processed

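RNA of 6 EB samples, 3 WT and 3 Tnfaip2-/-, was sequenced from libraries that do not keep the strand. The authors deposited raw counts per gene, made from trimmed reads that TopHat2 2.1.0 had placed on GRCm38 and featureCounts 1.5.0 had counted where they mapped uniquely (versions as in the submitters' processing notes). Samples were grouped by their labels. All further steps used R 4.3.3 and edgeR 4.0.16, with the default expression filter (minimum count 10, minimum total 15), TMM factors, the robust quasi-likelihood F test in its newer form, Benjamini-Hochberg adjustment over the 17849 tested genes and a threshold of 0.05. The SE of a log2 fold change was taken as its size over the root of F and is approximate. Symbols were available for 52403 of 52636 genes, and each of the 158 genes looked for had 1 row. Positions and exon lengths are those of the GENCODE annotation of GRCm38, with the exons of all transcripts of a gene joined, and promoters are from RefSeq. The floor of 3 counts equals 0.128 to 0.137 CPM, and intervals from counts cover counting error only. The genes named were the members and Tnfaip2, up to 3 called genes of each list of related genes by size of log2 fold change (mean of 1 CPM or more) with its most abundant gene per kb over all samples, 2 genes of each marker list by size of log2 fold change with its most abundant gene, and the 3 genes most like Cdh1 and Vim. Some genes that this rule takes are not reported here. Ctnnd1, Vcl, Nefl, Llgl2, S100a4, Sparc, Mesp1, Msgn1, Neurog2, Lum, Postn, Krt7 and Zfp42 fall outside this rule and were chosen after their values were seen. The same holds for Grhl2, Sox7, Sox17, Gata4 and Gata6. The ratios between members, the shares of the cadherins, the E-box search and the promoters printed were likewise chosen after values were seen. The members and lists were chosen with earlier results of these data known. Alternatives were DESeq2 1.42.0, RLE or upper-quartile factors, library totals alone, no filter, a filter of 30 counts in 3 samples, the legacy form of the test, a null hypothesis of a 1.5-fold change, the replicate number as a block, and leaving out each sample in turn.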

Additional observations from a re-analysis of the deposited data

How the results depend on the processing

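The number of genes called over all genes was 12084, and 2798 when tested against a 1.5-fold change, which asks for a larger difference; with the other alternatives it stayed within 1.5 times of 12084, and it was 11537 to 11744 without 1 sample. Of the members, 7 were called lower, 6 with DESeq2, 5 against a fold change of 1.5, and 6 to 7 without 1 sample. The number of members called higher was 0, and 1 with upper-quartile factors and with library totals alone, where Cdh1 passed (log2 fold change 0.065 and 0.067); these scalings moved the median of all tested genes from 0.003 to 0.029 and 0.031. Without 1 sample it was 0 throughout. Calls of Cdh2, Cdh11, Vim, Zeb2 and Twist1 held under all alternatives, and Snai2 and Zeb1 passed under none, with Snai2 not tested at 30 counts in 3 samples. Without 1 sample, the log2 fold change ranged from 0.017 to 0.048 for Cdh1 and from -0.086 to -0.049 for Zeb1. Epcam was lost against a fold change of 1.5, and Snai1 there, with DESeq2 and without WT replicate 3. Among the other genes named, the log2 fold change of Col1a1, which did not pass in any fit, turned to 0.158 without WT replicate 2 and 0.134 without Tnfaip2-/- replicate 1; without 1 sample it ranged from -0.186 to 0.158. Over single genes, 1075 alternative values kept direction and side of the threshold, 30 became weaker, 10 stronger and 2 turned sign. Replicate numbers did not pair the samples: deviations of same-numbered samples correlated at -0.165, -0.159 and -0.135, and no sample correlated best with its own number. With the replicate block, 11841 genes were called over all genes, 7 members were called, 7 lower and 0 higher. Counts of under 50 limit what can be said of Snai1 and Snai2 in all samples and of Twist1 in the Tnfaip2-/- samples.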
